A study of Mus musculus with 17 samples.

Results

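The 9 genes followed here across bulk RNA-seq of cultured mouse astrocytes, *Lhx2*, *Emx1*, *Emx2*, *Otx1*, *Nkx2-1*, *Zic1*, *Zic2*, *Meis2* and *Six3*, encode transcription factors that lay out the regions of the embryonic forebrain. They were chosen by name, and all 9 of 9 were found among the 56691 gene rows of the count table. The cells were astrocytes immunopanned with a HepaCAM antibody, after removal of CD45 and O4 cells, from C57BL/6 mouse brains at postnatal day 2, without meninges, olfactory bulbs and cerebellum. The 17 libraries fell into 5 groups. In the first experiment cultures received DMSO (n = 3) or SAG (n = 3), the smoothened agonist that turns on Sonic hedgehog (SHH) signaling, at 500 ng/ml from day 3 in vitro for 3 days. In the second experiment cultures received PBS (n = 4), FGF2 (n = 4) or FGF10 (n = 3), the growth factors at 50 ng/ml, from day 2 in vitro for 7 days. The study's methods give fewer FGF2 replicates than the labels, and the labels were followed. The study asked whether these signals move astrocytes toward the programs of the medial septum (SHH) or the lateral septum (FGF). The cultures mixed astrocytes of all brain regions left in the dissection, so a level given here is an average over regions, and fewer cells that express a gene and less RNA per cell cannot be told apart.

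In the embryo the forebrain is divided by gradients of secreted signals, and the factors described here record the position of a progenitor. SIX3 marks the most anterior neural plate and OTX1 the forebrain and midbrain. LHX2, EMX1 and EMX2 specify the cortex and hippocampus, and ZIC1 and ZIC2 mark the dorsal midline and the septum. NKX2-1 marks the ventral domain that SHH induces, including the source of medial septal cells, and MEIS2 is a TALE homeobox protein of the ganglionic eminences and cortex. Astrocytes keep parts of this code after birth.

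The 3 stretches of genome below are shown because a comparison below turns on the gene each belongs to: *Nkx2-1* as the classical target of SHH in the ventral forebrain, *Six3* because it and its opposite-strand neighbor were both measured, and *Lhx2* as a cortical factor set against FGF. Each is the 250 bases before the RefSeq start of the gene in GRCm38.p6, the genome build that the submitters name, read 5′ to 3′ on the strand of the gene. That of *Six3* lies inside the longer span that GENCODE gives the gene, and 44 of its bases are annotated as an exon of the antisense gene *Gm28528*. Capitals mark the letters GGTGGTC, the reverse complement of GACCACC, the core of the binding motif of the GLI factors that SHH activates.
Nkx2-1, chr12:56536909-56537158, minus strand: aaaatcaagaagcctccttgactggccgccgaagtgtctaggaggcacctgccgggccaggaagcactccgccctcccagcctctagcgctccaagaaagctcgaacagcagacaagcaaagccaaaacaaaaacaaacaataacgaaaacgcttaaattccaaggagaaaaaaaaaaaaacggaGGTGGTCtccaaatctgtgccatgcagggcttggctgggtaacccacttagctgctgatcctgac
Six3, chr17:85620584-85620833, plus strand: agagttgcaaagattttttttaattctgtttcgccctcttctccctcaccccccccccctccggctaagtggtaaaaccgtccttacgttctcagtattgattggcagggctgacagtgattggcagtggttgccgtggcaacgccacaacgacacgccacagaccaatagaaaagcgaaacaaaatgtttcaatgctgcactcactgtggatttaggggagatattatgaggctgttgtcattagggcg
Lhx2, chr2:38339031-38339280, plus strand: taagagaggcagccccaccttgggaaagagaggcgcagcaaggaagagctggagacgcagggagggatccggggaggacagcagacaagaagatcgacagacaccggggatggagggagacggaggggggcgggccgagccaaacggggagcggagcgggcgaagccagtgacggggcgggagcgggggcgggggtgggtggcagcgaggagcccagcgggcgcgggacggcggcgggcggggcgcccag

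GACCACC and its reverse complement were searched in windows of 300 bases, from 250 bases before to 50 after the start, that RefSeq gave for 7 of the 9 genes (*Lhx2*, with 2 starts, *Emx1*, *Emx2*, *Nkx2-1*, *Zic1*, *Meis2* and *Six3*). The core was found in the *Nkx2-1* window, 1 of these 8, and in 2.80% of 32851 windows genome-wide. The longer form GACCACCCA, which contains the core, was in none of the 8 and in 0.253% of all windows. A match is a run of letters and was not tested as a binding site. The windows of *Lhx2* (74.7% G and C at the first start) and *Emx1* (74.0%) were the richest in G and C, and those of *Six3* (50.0%), *Meis2* (51.0%) and *Nkx2-1* (53.7%) the poorest.

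Of the 9 genes, 5 (*Lhx2*, *Emx2*, *Nkx2-1*, *Zic1* and *Six3*) share genome with a gene on the other strand in the GENCODE M21 annotation. *Six3* (chr17:85613608-85629302, plus strand) overlaps *Six3os1* (chr17:85600651-85618398, minus strand), a non-coding RNA that shares 106 exon bases with it. *Emx2* (chr19:59458372-59465357, plus strand) overlaps *Emx2os* (chr19:59425104-59458635, minus strand) over 264 bases, and *Zic1* (chr9:91358058-91365810, minus strand) shares 60 exon bases with *Zic4*. None of the shared exon bases lay in the last 500 bases of any of the 9 genes, the end from which 3′ libraries take their reads. The last 500 bases of the annotated transcripts of all 9 genes matched no other gene over 75 bases or more at 95% identity. The positions of the others were chr2:38339281-38369733 for *Lhx2*, chr6:85187438-85204462 for *Emx1*, chr11:21994764-22002897 for *Otx1*, chr12:56531958-56536908 for *Nkx2-1*, chr14:122475435-122479852 for *Zic2* and chr2:115863064-116065839 for *Meis2*.

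Libraries held 17481727 to 68342287 counts (median 37173676). All 12 astrocyte markers were detected, their summed level ran from 3892 to 6253 CPM (counts scaled to library size), and the 10 microglia and macrophage markers together stayed between 0 and 4.36 CPM. Neuron markers summed to 180 to 555 CPM, with *Slc17a6* and *Slc17a7* at 0 in all libraries, and the 10 ependymal and choroid plexus markers to 80.7 to 514 CPM. In the SAG libraries *Ptch1*, a direct SHH target, stood at 462, 482 and 461 CPM against 81.9, 103 and 67.2 in DMSO (log2(fold-change) 2.50, SE 0.218, edgeR adjusted p = 0.00173), and *Gli1* had 210 to 1333 counts in SAG libraries and 0 in all 3 DMSO libraries. 3′ libraries take their reads from the end of a transcript, so CPM was compared between genes without correction for length. The use of molecular identifiers is not given, so counts are reads and may include copies of the same molecule. CPM values given here were normalized by TMM over all 17 libraries.

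Of the 9 factors, 7 were expressed above 10 CPM on average. *Meis2* was the highest at 301 CPM (mean over 17 libraries, range 202 to 451), above 98.3% of the genes with a count in any library. *Six3* followed at 171 CPM (range 89.6 to 263), *Lhx2* at 149 (91.2 to 199), *Zic1* at 104 (63.0 to 147) and *Emx2* at 81.0 (21.7 to 158). *Otx1* averaged 31.9 CPM (13.5 to 72.9) and *Zic2* 13.0 CPM (0 to 27.6). These 7 were detected in all libraries, except that *Zic2* had no count in SAG replicate 3.

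*Nkx2-1* and *Emx1* were low on average and had no count in some libraries. *Nkx2-1* averaged 3.01 CPM and had 0 counts in 10 of 17 libraries, while the 7 others held 97 to 488 counts. *Emx1* averaged 2.75 CPM, had 0 counts in 4 libraries and reached 532 counts (10.9 CPM) in PBS replicate 1. A count of 0 allows at most 3 counts, 0.0439 to 0.172 CPM depending on the library, which covers counting error only. Gaps were also seen in other genes: in any single library, 7.58% to 33.9% of those genes whose other libraries averaged 5 to 10 CPM had no count. Both factors averaged below that range.

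**Figure D1:**
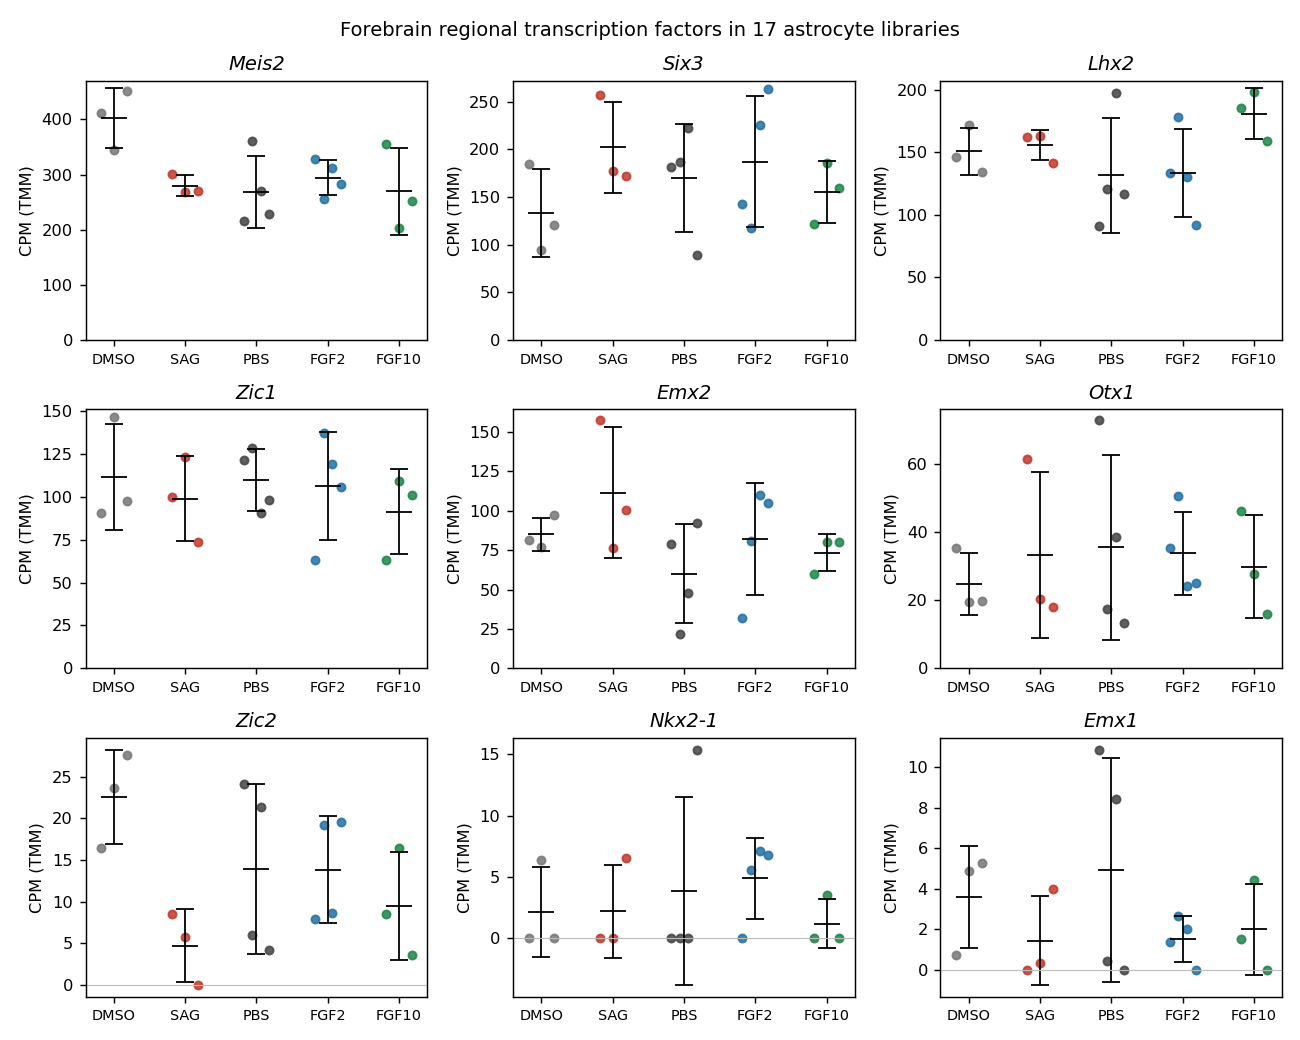
TMM-normalized CPM (y axis, linear, a scale of its own in each panel) of the 9 factors in every library, by group (x axis); points are libraries, the long dash is the group mean and the bar its SD (n = 3 for DMSO, SAG and FGF10, n = 4 for PBS and FGF2). *Meis2* in DMSO (345 to 451 CPM) lies above all SAG libraries (268 to 302), *Zic2* in SAG (0 to 8.49) below all DMSO libraries (16.5 to 27.6), and *Nkx2-1* sits at 0 in 10 of 17 libraries.

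Within each pair of related genes 1 member carried most of the reads. *Emx2* made up a median of 97.5% of the counts of *Emx1* and *Emx2* together (range 85.1% to 100% over 17 libraries), and *Zic1* 88.1% of *Zic1* plus *Zic2* (77.9% to 100%). *Six3* made up 76.3% of the sum with *Six3os1* (52.1% to 82.4%) and *Emx2* 96.7% of the sum with *Emx2os* (89.1% to 100%). The spread between replicates was smallest in the abundant factors. The pooled within-group SD of log2 CPM was 0.27 for *Meis2*, 0.32 for *Lhx2*, 0.39 for *Zic1* and 0.48 for *Six3*, against a median of 0.44 over 3134 genes at 50 to 500 CPM. It was 0.67 for *Emx2*, 0.82 for *Otx1*, 1.90 for *Zic2*, 3.05 for *Emx1* and 3.88 for *Nkx2-1*.

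The other genes of the regional code place these levels. Of 38 listed diencephalon, midbrain and hindbrain factors, 10 averaged 1 CPM or more, led by *Tcf7l2* (166 CPM), a thalamic factor, *Irx1* (36.2) and *Irx3* (15.4). Of the 19 Hox genes in that list, which mark hindbrain and spinal cord, 3 had any count and the highest, *Hoxb8*, averaged 0.0073 CPM. Of 18 other dorsal forebrain factors 11 averaged 1 CPM or more, with *Nr2f1* (159 CPM), *Pax6* (130.1) and *Dmrta2* (125) the highest. Of 17 other ventral forebrain factors 15 did, led by *Olig2* (1372 CPM) and *Olig1* (1115), which also act in the oligodendrocyte lineage. *Olig1* and *Olig2* also stand in the list of oligodendrocyte lineage markers, whose summed level ran from 2166 to 4498 CPM.

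Among 26 relatives of the same families, 9 averaged 1 CPM or more. *Meis1* (72.5 CPM), *Otx2* (47.4), *Meis3* (41.0), *Six5* (24.3), *Nkx2-2* (23.1), *Zic4* (14.9) and *Zic5* (11.1) were lower than the member of their family that led it, except that *Otx2* stood above *Otx1* and *Nkx2-2* above *Nkx2-1* in mean level. Of 22 partner proteins 21 averaged 1 CPM or more. Among them were *Lmo4* (284 CPM), a LIM-only protein, and *Ssbp3* (215), which acts with LHX2 in the LDB1 complex. *Ldb1* itself averaged 157 CPM.

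**Figure D2:**
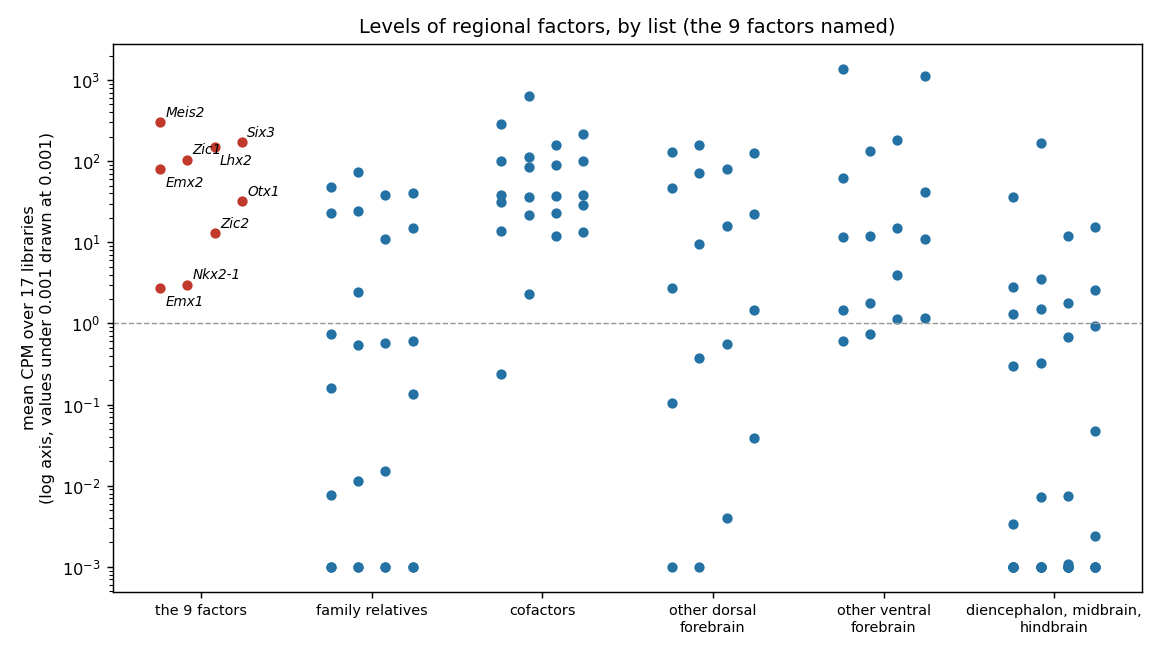
Mean CPM over the 17 libraries (y axis, log scale, values under 0.001 drawn at 0.001) of the 9 factors (red) and of 5 lists of related or other regional genes (blue), with the 9 factors named and a dashed line at 1 CPM. *Meis2*, *Six3* and *Lhx2* lie at 301, 171 and 149 CPM, *Olig2* and *Olig1* at 1372 and 1115, and most of the 38 diencephalon, midbrain and hindbrain factors fall under 1 CPM.

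SAG was compared with DMSO to ask whether SHH signaling shifts the regional code. None of the 8 factors tested was called by edgeR at an adjusted p of 0.05, with 8 of 12538 genes called in all (0.0638%), and DESeq2 called 0 of the factors and 398 genes. At an unadjusted p under 0.05 edgeR listed 1 factor, *Meis2*, among 714 genes (5.69%). Of the 8, 4 had a higher fitted value in SAG and 4 a lower one, and their median log2(fold-change) was -0.04 beside -0.02 for all genes tested. In 2 of the 8, *Meis2* and *Zic2*, the groups did not overlap, both lower in SAG, where 8.18% of genes tested were lower without overlap and 14.1% did not overlap in either direction.

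*Meis2* stood at 412, 345 and 451 CPM in the DMSO libraries and at 302, 268 and 271 CPM in the SAG libraries. All 3 SAG libraries were below the lowest DMSO library. The means were 402 ± 53.9 and 280.1 ± 18.9 CPM (SD, n = 3 each). The log2(fold-change) was -0.50 (SE 0.185, 95% interval -0.91 to -0.09, unadjusted p = 0.0202, edgeR adjusted p = 0.68). DESeq2 gave an adjusted p of 0.0847 for a log2(fold-change) of -0.49. The two-sided exact permutation test gave p = 0.1, the smallest that 3 against 3 allows. The labels do not say whether libraries of a group came from separate cultures or animals. The study's methods call them biological replicates and a figure legend calls them sample pools, so p-values here measure the spread between these libraries.

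*Zic2* had 16.5, 23.6 and 27.6 CPM in DMSO and 8.49, 5.73 and 0 CPM in SAG. Again no SAG library reached the DMSO range, and SAG replicate 3 had no count. The group means were 22.6 ± 5.65 and 4.74 ± 4.33 CPM (SD, n = 3 each). The log2(fold-change) was -2.23 with an SE of 1.64 (95% interval -5.84 to 1.37, edgeR adjusted p = 1.0), and -1.65 without SAG replicate 3. *Zic1*, its neighbor in sequence and domain, had overlapping groups at 90.3, 147 and 97.6 CPM in DMSO and 99.7, 123 and 73.7 CPM in SAG (log2(fold-change) -0.15, SE 0.302, 95% interval -0.81 to 0.51).

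*Six3* measured 184, 94.6 and 120.2 CPM in DMSO and 257, 177 and 172 CPM in SAG. The ranges overlapped through DMSO replicate 1. The means were 133 ± 46.2 and 202 ± 47.6 CPM, a log2(fold-change) of 0.63 (SE 0.288, 95% interval 0.00 to 1.26, unadjusted p = 0.051, edgeR adjusted p = 0.88). DESeq2 gave an adjusted p of 0.216, and the log2(fold-change) was 0.93 without DMSO replicate 1, 0.42 without SAG replicate 1 and 0.43 without DMSO replicate 2. *Six3os1*, on the other strand, stood at 39.5, 53.3 and 36.8 CPM in DMSO and at 55.7, 119 and 86.0 CPM in SAG. Its SAG libraries were all above its DMSO libraries (log2(fold-change) 1.03, SE 0.376, edgeR adjusted p = 0.67), where 5.96% of genes tested were higher without overlap.

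The cortical factors overlapped between DMSO and SAG. *Lhx2* had 146, 172 and 135 CPM in DMSO and 163, 163 and 142 CPM in SAG. The 6 values lay close together, with a log2(fold-change) of 0.07 (SE 0.222) and a 95% interval of -0.42 to 0.56. *Emx2* had 81.3, 76.9 and 97.0 CPM in DMSO and 158, 76.4 and 100.5 CPM in SAG (log2(fold-change) 0.41, SE 0.314), the highest value being that of SAG replicate 1. *Otx1* had 35.5, 19.5 and 19.8 CPM in DMSO and 61.4, 20.4 and 18.1 CPM in SAG (log2(fold-change) 0.44, SE 0.676), and replicate 1 was the highest of both groups.

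*Nkx2-1* did not pass the filter on low counts in this comparison. It had 289 counts (6.34 CPM) in DMSO replicate 2 and 204 counts (6.57 CPM) in SAG replicate 3, and 0 in the other 4 libraries. Thus 1 of 3 libraries of each group held it, and the exact permutation test gave p = 1.0 (two-sided). *Emx1* had 0.70, 4.85 and 5.25 CPM in DMSO and 0, 0.34 and 3.96 CPM in SAG (log2(fold-change) -1.30, SE 2.82). Its 95% interval ran from -7.48 to 4.87 and so held both large losses and large gains.

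Beside these values, genes of other cell types also differed between the DMSO and SAG libraries. Neuron markers summed to 280 to 555 CPM in DMSO and 180 to 261 CPM in SAG, with 7 of 9 tested lower. Of these 7, 4 were lower without overlap, where 8.18% of all genes tested were. Ependymal and choroid plexus markers, mostly *Foxj1*, summed to 211 to 280.0 CPM in DMSO and 92.1 to 143 CPM in SAG. Oligodendrocyte lineage markers went both ways, with 4 of 9 tested higher in SAG and 5 lower (median log2(fold-change) -0.29). Their summed level, mostly *Olig1* and *Olig2*, was 2255 to 2782 CPM in DMSO and 4012 to 4133 CPM in SAG. Astrocyte markers overlapped at 4722 to 5069 and 4271 to 4962 CPM. The part of these cells in the values of *Meis2*, *Zic2* and *Six3* was not tested.

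Among the related lists under SAG, 1 gene was called, *Olig1* (log2(fold-change) 1.29, SE 0.14, edgeR adjusted p = 0.0042). All 9 other dorsal forebrain factors tested had a lower fitted value, 0 of them called, with a median log2(fold-change) of -0.61 against -0.02 for all genes. Of the 9, 4 did not overlap, all lower in SAG, where 8.18% of all genes tested were lower without overlap. Among the 4 were *Nr2f1* (log2(fold-change) -0.54, SE 0.237, edgeR adjusted p = 0.83) and *Dmrta2* (-0.61, SE 0.28, adjusted p = 0.89). *Nkx2-2*, a ventral SHH target and relative of *Nkx2-1* that was chosen after its values were seen, stood at 5.75, 14.7 and 2.82 CPM in DMSO and 36.7, 51.9 and 52.9 CPM in SAG (log2(fold-change) 2.63, SE 0.754, edgeR adjusted p = 0.46).

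The other lists were mixed under SAG. Of 9 family relatives tested 4 were higher and 5 lower (median log2(fold-change) -0.19), and of 20 cofactors 11 and 9 (0.13). Of 11 other ventral forebrain factors 3 were higher and 8 lower. Without overlap, 2 were higher, *Olig1* and *Olig2*, and 2 lower, *Dlx2* and *Gsx2*, beside 5.96% and 8.18% of all genes tested. *Dlx2* had a log2(fold-change) of -1.56 (SE 0.606, edgeR adjusted p = 0.72). Of 7 diencephalon, midbrain and hindbrain factors 2 were higher and 5 lower. Both tallies are limited, since some genes passed the count filter through DMSO alone. *Gsx2* had 0 counts in all 3 SAG libraries, and *Irx2* had 0 in SAG replicates 1 and 3.

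**Figure D3:**
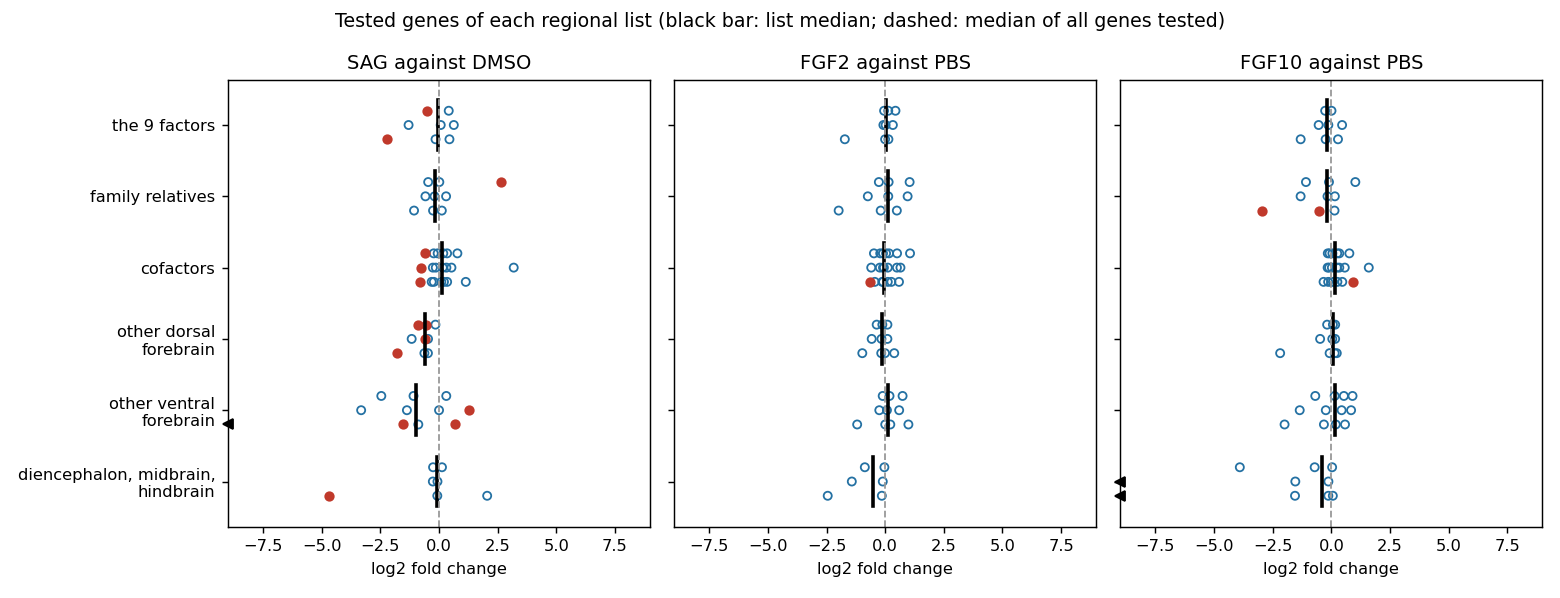
log2(fold-change) (x axis) of every tested gene of the 9 factors and of 5 related lists (rows) in 3 comparisons; filled red points are genes whose groups did not overlap, open blue points overlap, black arrowheads at the edge are genes past 9, black bars are list medians over genes with counts in both groups, and the dashed line is the median of all genes tested. Under SAG the 9 other dorsal forebrain genes tested all lie left of 0 (median -0.61), while the 8 factors tested have a median of -0.04.

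FGF2 was compared with PBS to ask whether FGF signaling moves the same code. None of the 9 factors was called by edgeR and none had an unadjusted p under 0.05, with 0 of 12744 genes called (0%) and 223 (1.75%) under an unadjusted p of 0.05. DESeq2 called 0 of the factors and 120 genes. None of the 9 was without overlap, a state of 2.44% of genes tested (1.18% lower and 1.26% higher in FGF2). Of the 9, 5 had a higher fitted value in FGF2 and 4 a lower one, with a median log2(fold-change) of 0.02 beside 0.00 for all genes.

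*Lhx2* had 91.2, 121, 198 and 117 CPM in PBS and 134, 179, 130.2 and 92.2 CPM in FGF2. Both groups covered nearly the same range (log2(fold-change) 0.02, SE 0.283, 95% interval -0.59 to 0.63). *Meis2* had 215, 361, 271 and 228 CPM in PBS and 328, 255, 312 and 283 CPM in FGF2 (log2(fold-change) 0.13, SE 0.213, 95% interval -0.33 to 0.59). *Zic1* had 121, 129, 90.6 and 98.2 CPM in PBS and 63.2, 137, 119 and 106 CPM in FGF2 (log2(fold-change) -0.05, SE 0.268). For these 3 genes the intervals do not reach a log2 difference of 1 in either direction.

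*Six3* had 181, 187, 223 and 89.6 CPM in PBS and 142, 117, 226 and 263 CPM in FGF2. The FGF2 libraries numbered 1 and 2 lay below both PBS libraries of that set, and those numbered 3 and 4 above both PBS libraries of theirs. These sets were chosen because an earlier analysis of the same data found them to differ. Neither the labels nor the study name a batch. Over all 4 against 4 libraries the log2(fold-change) was 0.14 (SE 0.317, edgeR adjusted p = 1.0). The difference of the FGF2 effect between the sets (replicates 3 and 4 minus replicates 1 and 2) was 1.14 (SE 0.497, edgeR adjusted p = 0.997) for *Six3* and -1.07 (SE 0.46, adjusted p = 0.997) for *Lhx2*, in a test that called 2 of 12744 genes (0.0157%). *Six3os1* had 45.2, 43.1, 66.0 and 43.8 CPM in PBS and 86.1, 45.3, 117 and 81.5 CPM in FGF2 (log2(fold-change) 0.73, SE 0.322, edgeR adjusted p = 1.0), with 3 of 4 FGF2 libraries above all PBS libraries.

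*Emx2* had 78.7, 21.7, 48.1 and 92.2 CPM in PBS and 32.1, 80.7, 109.8 and 105 CPM in FGF2 (log2(fold-change) 0.44, SE 0.455). *Otx1* had 72.9, 17.4, 38.6 and 13.5 CPM in PBS and 35.4, 50.6, 24.1 and 25.1 CPM in FGF2 (log2(fold-change) -0.08, SE 0.538). *Zic2* had 24.1, 5.97, 21.3 and 4.25 CPM in PBS and 7.94, 19.2, 8.69 and 19.6 CPM in FGF2 (log2(fold-change) 0.00, SE 0.837). In these 3 genes the highest PBS library was over 4 times the lowest, a wider gap than that between the group means. *Nkx2-1* had 15.4 CPM in PBS replicate 4 and 0 in the other 3 PBS libraries, and 0, 5.54, 7.12 and 6.80 CPM in FGF2, so that 3 of 4 FGF2 libraries and 1 of 4 PBS libraries held it (log2(fold-change) 0.33, SE 2.60). *Emx1* had 10.9, 0.42, 8.45 and 0 CPM in PBS and 1.37, 2.63, 2.03 and 0 CPM in FGF2 (log2(fold-change) -1.72, SE 2.33).

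FGF10 was compared with the same PBS libraries. None of the 8 factors tested was called by edgeR, none had an unadjusted p under 0.05 and none was without overlap. In all, 0 of 13309 genes were called (0%), 305 (2.29%) had an unadjusted p under 0.05 and 4.80% did not overlap (1.98% lower, 2.82% higher), and DESeq2 called 0 of the factors and 104 genes. Of the 8, 3 had a higher and 5 a lower fitted value (median log2(fold-change) -0.18, all genes 0.00).

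*Lhx2* had 186, 199 and 159 CPM in FGF10 beside the PBS values of 91.2, 121, 198 and 117 CPM. All 3 FGF10 libraries were above 3 of the 4 PBS libraries, and PBS replicate 3 lay among them. The means were 181 ± 20.3 (SD, n = 3) and 132 ± 46.0 CPM (SD, n = 4), with a log2(fold-change) of 0.46 (SE 0.277, 95% interval -0.14 to 1.06, edgeR adjusted p = 1.0) and an exact permutation p = 0.171 (two-sided). Without PBS replicate 3 the log2(fold-change) was 0.72 (adjusted p = 1.0). FGF2 and FGF10, compared directly, gave -0.44 for *Lhx2* (SE 0.264, 95% interval -1.01 to 0.14).

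*Meis2* had 356, 202 and 251 CPM in FGF10 (log2(fold-change) 0.01 against PBS, SE 0.256) and *Six3* 121, 186 and 159 CPM (-0.13, SE 0.3). *Zic1* had 63.0, 109.5 and 101 CPM (-0.26, SE 0.278) and *Emx2* 59.7, 80.3 and 79.9 CPM (0.28, SE 0.425). *Otx1* had 46.1, 27.7 and 16.0 CPM (-0.24, SE 0.62) and *Zic2* 8.48, 16.5 and 3.66 CPM (-0.54, SE 1.07). Each of these overlapped the PBS range given above. *Nkx2-1* had 169 counts (3.48 CPM) in FGF10 replicate 2 and 0 in the other 2 libraries and was not tested, and *Emx1* ranged from 0 to 4.45 CPM (-1.31, SE 2.71).

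Between FGF2 and FGF10 at the same dose and time, 0 of the 9 factors were called by edgeR or DESeq2, 0 had an unadjusted p under 0.05 and 0 were without overlap. Over all 13493 genes tested edgeR called 0 (0%), 324 (2.40%) had an unadjusted p under 0.05, 4.94% did not overlap (2.39% higher and 2.54% lower in FGF2) and DESeq2 called 90. The fitted values ran from -0.44 (*Lhx2*) to 2.06 (*Nkx2-1*, SE 2.92), with 7 of 9 higher in FGF2. The 95% intervals were -0.40 to 0.66 for *Meis2*, -0.41 to 0.94 for *Six3* and -0.48 to 0.92 for *Zic1*, so that a log2 difference of 1 was outside these 3 intervals and smaller differences were not.

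**Figure D4:**
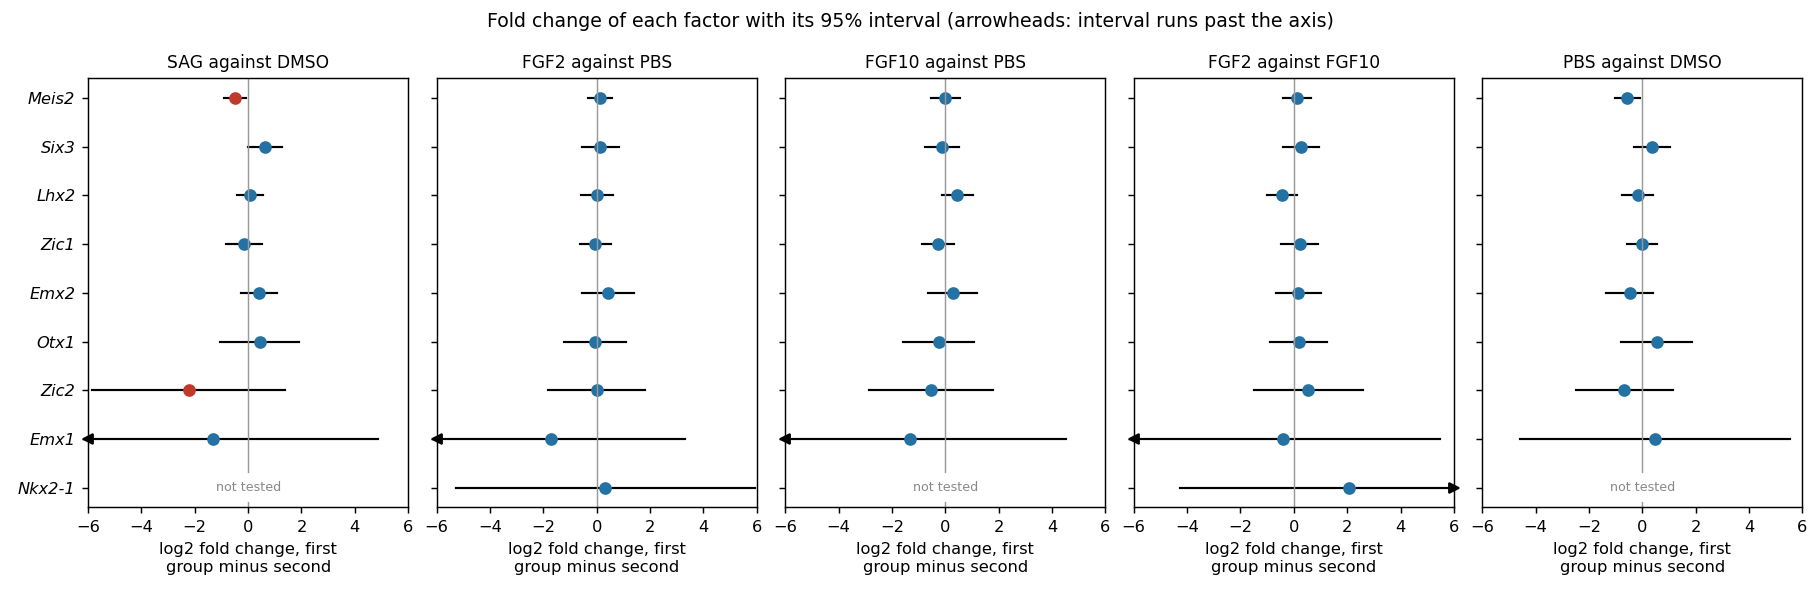
log2(fold-change) of each factor (x axis, first group minus second, cut at 6 either side) with its 95% interval in the 5 comparisons; red points are genes whose groups did not overlap, blue points overlap, arrowheads mark intervals that run past the axis and genes under the count filter are written as not tested. The abundant factors at the top have intervals within about 1 log2 unit of their value, *Zic2*, *Emx1* and *Nkx2-1* have intervals of several units, and *Meis2* and *Zic2* under SAG are the red points.

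Of the other regional lists, 0 genes were called under either growth factor. The other dorsal forebrain factors were lower in 7 of 10 under FGF2 (median log2(fold-change) -0.14) and in 4 of 10 under FGF10 (0.05), and the other ventral ones higher in 7 of 10 (0.13) and in 7 of 12 (0.17). Family relatives and cofactors had medians between -0.16 and 0.16. The diencephalon, midbrain and hindbrain factors were lower in 6 of 6 tested under FGF2 (median -0.51) and in 8 of 10 under FGF10, with 0 without overlap in either. Among the 8 were *Irx2* and *Foxa1*, at 0 CPM in FGF10, which passed the count filter through PBS alone. Both comparisons share the 4 PBS libraries.

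The vehicle groups were compared as a background, although vehicle, start day, days of treatment and experiment cannot be told apart in it. None of the 8 factors tested was called by edgeR (0 of 13271 genes called, 0%, with 580, 4.37%, under an unadjusted p of 0.05 and 193 genes and 0 factors called by DESeq2), and none was without overlap, against 6.41% of genes (3.50% lower and 2.92% higher in PBS). *Meis2* was the 1 factor with an unadjusted p under 0.05, at 269 ± 65.8 CPM in PBS (n = 4) and 402 ± 53.9 in DMSO (log2(fold-change) -0.56, SE 0.22, unadjusted p = 0.0224, edgeR adjusted p = 1.0). The other factors had fitted values from -0.68 (*Zic2*, SE 0.845) to 0.53 (*Otx1*, SE 0.623), among them -0.48 for *Emx2* (SE 0.412), 0.38 for *Six3* (SE 0.316), -0.17 for *Lhx2* (SE 0.275) and -0.01 for *Zic1* (SE 0.265). For *Meis2*, PBS replicate 2, at 361 CPM, lay inside the DMSO range. This comparison and that of SAG share the 3 DMSO libraries, the group of the highest *Meis2* mean. In a single test over the 5 groups, 6 of 15458 genes were called (0.0388%) and *Meis2* had an unadjusted p of 0.0988 and an edgeR adjusted p of 0.87.

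Ordered by mean level, DMSO was the highest group for *Meis2*, and no DMSO library overlapped the next group, FGF2 (295 ± 32.2 CPM). This was the 1 pair of neighbors, of 36 in the order of 5 groups for 9 genes, whose ranges did not meet. For *Lhx2* the order was FGF10, SAG, DMSO, FGF2 and PBS (181 to 132 CPM), for *Six3* SAG, FGF2, PBS, FGF10 and DMSO (202 to 133 CPM), and for *Zic1* DMSO, PBS, FGF2, SAG and FGF10 (112 to 91.2 CPM). *Emx2* ran from 111 CPM in SAG to 60.2 in PBS, *Otx1* from 35.6 in PBS to 24.9 in DMSO and *Zic2* from 22.6 in DMSO to 4.74 in SAG.

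In the FGF experiment, replicates 3 and 4 differed from replicates 1 and 2 in 586 of 14553 genes (4.03%), and no factor was among them. The split was itself taken from an earlier analysis of these libraries, so that count is not independent support for it. *Otx1* came closest, at 41.7 ± 19.5 CPM in replicates 1 and 2 (n = 6) and 23.5 ± 9.86 in replicates 3 and 4 (n = 5), a log2(fold-change) of -0.89 (SE 0.431, edgeR adjusted p = 0.364). *Emx2* went the other way, from 58.9 ± 26.2 to 87.0 ± 24.6 CPM (0.59, SE 0.321, adjusted p = 0.444). Within replicates 1 and 2 the FGF2 log2(fold-change) was -0.50 for *Six3*, 0.56 for *Lhx2* and -0.31 for *Zic1*. Within replicates 3 and 4 it was 0.64 for *Six3*, -0.51 for *Lhx2* and 0.24 for *Zic1*.

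The genes whose profile over the 17 libraries was nearest to each factor were found by the root mean square difference of centered log2 CPM among 10917 other genes at 5 CPM or more. Nearest to *Meis2* were *Ctdsp2* (0.24), *1110004F10Rik* (0.25) and *Zc3h18* (0.25), and nearest to *Lhx2* were *Ttc3*, *Sqstm1* and *Ski* (0.27 each). *Zic1* was nearest to *Ndufa5* (0.26), *Gsk3b* (0.29) and *Mnat1* (0.29), and *Six3* to *Mknk2* (0.33), *Atp5d* (0.35) and *Clta* (0.35). For *Emx2* they were *G6pdx* (0.43), *Adgrl2* (0.45) and *Rpl21* (0.46), for *Otx1* *Plbd2* (0.40), *Scrib* (0.49) and *Pofut2* (0.50), and for *Zic2* *H19* (0.80), *Fgf11* (0.84) and *Sdk2* (0.86). A gene that did not vary at all would lie at 0.31 from *Meis2*, 0.33 from *Lhx2*, 0.34 from *Zic1* and 0.45 from *Six3*. For *Emx2*, *Otx1* and *Zic2* that distance was 0.66, 0.70 and 2.06. The nearest genes of *Meis2*, *Lhx2* and *Zic1* were thus only a little closer than a flat profile. No factor was among the 3 nearest genes of another, and the same gene was nearest within the 11 FGF libraries for *Emx2*, *Meis2* and *Six3* and within the 6 SAG and DMSO libraries for none.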

How the data were processed

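3′ RNA-seq libraries (QuantSeq FWD) of cultured astrocytes, 17 in all, were measured. The authors deposited raw read counts per gene in a single table. The submitters' processing notes name STAR, DESeq2 and GRCm38, and the annotation, strand setting and use of molecular identifiers are not given in the sources used here. Of 56805 rows, 114 spike-in rows were left out, and 0 sample columns were unmapped. Groups came from the labels.

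Genes were filtered with filterByExpr (10 counts minimum, 15 in total) within the 2 groups compared, normalized by TMM and tested with the quasi-likelihood test of edgeR 4.0.16 (limma 3.58.1, R 4.3.3). P-values were adjusted by Benjamini-Hochberg over all genes tested and called under 0.05. SEs are the log2(fold-change) over the square root of F, and intervals are 95%. Single genes also had exact permutation tests of CPM (scipy 1.17.1, Python 3.11.15). DESeq2 1.42.0, DESeq2 size factors, other filters, all groups in 1 fit, a replicate block, replicate sets and leaving out each library were alternatives. All 9 factors were named in each comparison, with the 3 highest genes of each related list and the 3 genes nearest to each factor. Some genes of these lists are not reported here. The members and lists were chosen with earlier results of these data known. The fits were tested on simulated data. Depth ran from 17481727 to 68342287 counts, and limits on a count of 0 cover counting error only. Figures were drawn with matplotlib 3.10.9.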

Additional observations from a re-analysis of the deposited data

Results flagged for a closer look

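*Nkx2-1* had 15.4 CPM in PBS replicate 4 and 0 in the 3 other PBS libraries, a gap as wide as the whole range of the group. *Six3os1* had 66.0 CPM in PBS replicate 3 and 43.1 to 45.2 CPM in the others. These 2 were found among 22 groups of 4 libraries, where chance sets a library apart in about 1 of 20 groups. That rate does not hold for *Nkx2-1*, since a single library with counts among 3 at 0 always gives this gap. The FGF2 effect on *Six3* had opposite signs in replicates 1 and 2 and in replicates 3 and 4, with a difference between the sets of 1.14 on the log2 scale (edgeR adjusted p = 0.997).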

How the results depend on the processing

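No factor passed an adjusted p of 0.05 in any of 587 alternative values for 42 comparisons of a factor, and the lowest adjusted p was 0.0847 (DESeq2, *Meis2* under SAG). The sign changed in 60 of them, in 20 comparisons. Leaving out 1 library moved the log2(fold-change) under SAG from -0.60 to -0.41 for *Meis2*, 0.42 to 0.93 for *Six3* and -2.94 to -1.65 for *Zic2*. Same-numbered libraries were not taken as pairs: their deviations correlated at 0.036 to 0.115 within the FGF experiment, not all over 0.1, and at -0.016 to 0.012 in the comparisons with DMSO.

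For SAG against DMSO, 8 genes were called, and 76 with no filter, 42 with a mean of at least 10 counts, 4 with all groups in the fit, 398 with DESeq2, 4 when the calls needed both a log2(fold-change) over 1 and an adjusted p below 0.01, and 1 to 7 with a library left out. DESeq2 called 120 for FGF2 against PBS, 104 for FGF10 against PBS, 90 for FGF2 against FGF10 (no filter 2) and 193 for PBS against DMSO (no filter 36, mean filter 4, all groups in the fit 1). The cause was not tested.

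With a replicate block the log2(fold-change) was -0.0803 for *Meis2* under FGF10, 0.24 for *Zic2* and 0.17 for *Otx1* under FGF2, 1.12 for *Emx1* and -0.14 for *Emx2* between FGF2 and FGF10, and 0.0551 for *Zic1* between PBS and DMSO. *Meis2* under FGF10 was also -0.000573 with DESeq2, -0.000894 with its size factors, -0.00937 with the mean filter, -0.0201 with a term for the replicate set and -0.0503 within replicates 1 and 2, and *Zic2* under FGF2 was 0.000617 with no filter. Under FGF2, *Six3* was -0.50 within replicates 1 and 2, and within replicates 3 and 4 *Lhx2* was -0.51, *Nkx2-1* -0.16, *Zic1* 0.24 and *Zic2* 0.14.

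Without 1 library at a time, signs changed as follows. Under SAG, *Lhx2* ran from -0.0077 to 0.17, *Otx1* from -0.35 to 0.78 and *Zic1* from -0.34 to 0.10. Under FGF2, *Lhx2* ran from -0.15 to 0.28, *Otx1* from -0.35 to 0.54, *Nkx2-1* from -0.0888 to 10.61, *Zic1* from -0.19 to 0.14, *Zic2* from -0.30 to 0.40 and *Six3* from -0.0760 to 0.31. Under FGF10, *Emx2* ran from -0.0011 to 0.56, *Otx1* from -0.72 to 0.35, *Meis2* from -0.26 to 0.17 and *Six3* from -0.35 to 0.0203. Between FGF2 and FGF10, *Emx1* ran from -0.98 to 1.00, *Emx2* from -0.0114 to 0.43, *Otx1* from -0.13 to 0.63 and *Meis2* from -0.0414 to 0.38. Between PBS and DMSO, *Emx1* ran from -0.26 to 0.88, *Otx1* from -0.0800 to 0.87 and *Zic1* from -0.14 to 0.24. *Nkx2-1* and *Emx1* had 0 counts in 10 and 4 libraries, also in the deepest library for *Nkx2-1*.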
